A study of Mus musculus with 9 samples.

Results

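The genes described here are the WNT ligands, their Frizzled and LRP receptors, the secreted WNT antagonists and a few genes at the receptor or in the nucleus that report on the pathway, measured in mouse ear skin. Members were the array probe sets annotated with 1 gene whose symbol starts with Wnt, Fzd or Sfrp and a digit, or with Dkk, or is Wif1, Lrp5, Lrp6, Axin2, Lef1, Tcf7, Lgr5 or Lgr6. This gave 88 of 34945 single-gene probe sets and 46 of 18193 genes. Of the 46 genes, 37 were bright enough to be tested, among 14122 tested genes in all. Dkkl1, a Dickkopf-like gene, and Fzd10os, a transcript named for the strand opposite Fzd10, entered through their letters. Tcf7 was carried by none of the probe sets used and was not analysed here.

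All arrays came from ear skin of C57BL/6 mice collected after 6 h of topical treatment, with 3 arrays in each of 3 groups. One group received DNFB (dinitrofluorobenzene), a contact allergen, on the right ear. A second group received BAC (benzalkonium chloride), a detergent-like irritant, also on the right ear. The third received the vehicle alone, acetone with olive oil, on the left ear, so the side of the ear and the treatment cannot be told apart in comparisons with the vehicle. The labels give no dose, age, sex or number of animals. Nothing says that replicates came from separate animals, so the p-values rest on variation between arrays that may be partly or wholly technical. RNA of whole ear skin was measured, so fewer cells of a type and less RNA per cell cannot be told apart.

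WNT proteins are secreted lipid-modified signals that bind a Frizzled receptor and, in the canonical branch, the co-receptor LRP5 or LRP6. The bound receptor halts the complex of AXIN, APC and GSK3 that destroys beta-catenin, and beta-catenin then acts in the nucleus with TCF and LEF factors. SFRP proteins and WIF1 bind WNT ligands outside the cell, whereas DKK1, DKK2 and DKK4 bind LRP5 and LRP6. R-spondins act through LGR receptors to keep Frizzled at the surface. In skin, this signalling is known for hair follicle formation and cycling and for the maintenance of epidermal stem cells, and AXIN2 is a widely used readout because it is both an inhibitor and a target of the pathway.

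The values are MAS5 signals, an intensity on a linear scale for each probe set. Each array had a trimmed mean of 250.001 and a median signal between 71.2 and 86.3. Between 31 and 38 of the 46 members lay above the 40th percentile of an array, which fell between signals of 46.2 and 60.7. Keratins of the epidermis identified the tissue, with Krt14 at 7501 to 11114 and Krt10 at 18972 to 31242 over the 9 arrays. The ratio of 3' to 5' Gapdh control signals ranged from 0.841 to 1.36. That ratio for beta-actin was 1.05 to 1.10 in the vehicle arrays, 1.09 to 1.28 in the DNFB arrays and 1.18 to 1.22 in the BAC arrays, so every BAC array lay above every vehicle array. Its part in the results was not tested.

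The promoters of Wnt4 and Dkkl1 are printed because these genes fell with both compounds, and that of Axin2 because it is the feedback gene. The Axin2 call, after DNFB, held in 9 of 19 alternative fits, whereas those of Wnt4 and Dkkl1 held in all 19. Each promoter is the 250 bases before the gene's start in RefSeq GRCm38.p6, written 5' to 3' along the gene's strand. Capitals mark a match to the antioxidant response motif TGANNNNGC.

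Wnt4, chr4:137277385-137277634, plus strand: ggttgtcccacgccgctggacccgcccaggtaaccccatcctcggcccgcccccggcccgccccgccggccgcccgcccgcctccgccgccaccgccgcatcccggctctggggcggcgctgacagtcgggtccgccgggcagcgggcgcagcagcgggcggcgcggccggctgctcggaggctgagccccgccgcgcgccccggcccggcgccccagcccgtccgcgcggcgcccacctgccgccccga

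Dkkl1, chr7:45211884-45212133, minus strand: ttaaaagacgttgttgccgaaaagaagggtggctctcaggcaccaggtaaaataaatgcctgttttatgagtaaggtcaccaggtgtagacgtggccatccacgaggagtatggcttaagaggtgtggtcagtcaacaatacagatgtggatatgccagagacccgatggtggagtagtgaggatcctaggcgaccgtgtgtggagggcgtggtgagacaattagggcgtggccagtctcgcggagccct

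Axin2, chr11:108920099-108920348, plus strand: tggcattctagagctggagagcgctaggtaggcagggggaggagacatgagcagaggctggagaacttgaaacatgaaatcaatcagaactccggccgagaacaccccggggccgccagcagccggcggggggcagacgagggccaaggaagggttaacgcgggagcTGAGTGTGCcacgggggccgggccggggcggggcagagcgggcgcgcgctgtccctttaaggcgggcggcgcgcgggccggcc

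Promoters were available for 30 of the 46 member genes, 36 promoters in all, and for 7 of the 9 members that changed (not for Fzd6 or Sfrp1). Both strands were searched for 4 motifs, which can overlap one another. The TCF/LEF motif CTTTGAT was found in 2 of the 36 promoters, those of Wnt11 and Wnt5b, against 3.21% of all 32851 promoters. The AP-1 motif TGANTCA was found in 1, that of Wnt5b, against 6.75% of all promoters. The NF-kB motif was found in 1, that of Wnt10b, against 3.9%. The antioxidant response motif was found in 10 of the 36, against 35.2%. Among members that changed, it lay in the promoters of Axin2, Fzd10, Fzd5 and Fzd9, starting 83 bases before the gene's start in Axin2. None of these letters stood in the Wnt4 and Dkkl1 windows, which says nothing about the factors themselves.

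After DNFB, 5 of the 37 tested members were lower than in vehicle skin and 0 were higher: the ligand Wnt4, the receptors Fzd6 and Fzd10, the feedback gene Axin2, and Dkkl1. After BAC, 6 were lower and 0 higher: Wnt4, Fzd6 and Dkkl1 again, with the receptor Fzd5, the antagonist Sfrp1 and the R-spondin receptor Lgr6. Between DNFB and BAC 1 member passed, the receptor Fzd9, which was lower after DNFB. A member passed when its adjusted p was under 0.05 in limma, with Benjamini-Hochberg adjustment over the 14122 genes. Both comparisons with the vehicle use the same 3 vehicle arrays, so their shared calls are not independent.

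Among all tested genes, 13.8% passed for DNFB against vehicle, 6.76% higher and 7.08% lower. For BAC against vehicle 14.2% passed, 6.59% higher and 7.64% lower. For DNFB against BAC 6.8% passed, 3.14% higher and 3.66% lower. The share of the members was close to these backgrounds against the vehicle, at 13.5% for DNFB and 16.2% for BAC, with the calls in 1 direction. For DNFB against BAC it was 2.7%, 1 member, below the background. The median log2 change of the 37 members was -0.16 for DNFB and -0.19 for BAC, beside 0.0022 and -0.03 over all tested genes. Below 0 lay 23 of 37 members for DNFB and 25 of 37 for BAC. The arrays of DNFB and vehicle did not overlap for 15 members (30.9% of all tested genes), those of BAC and vehicle for 11 (34.1%), and those of DNFB and BAC for 8 (25.2%).

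**Figure D1:**
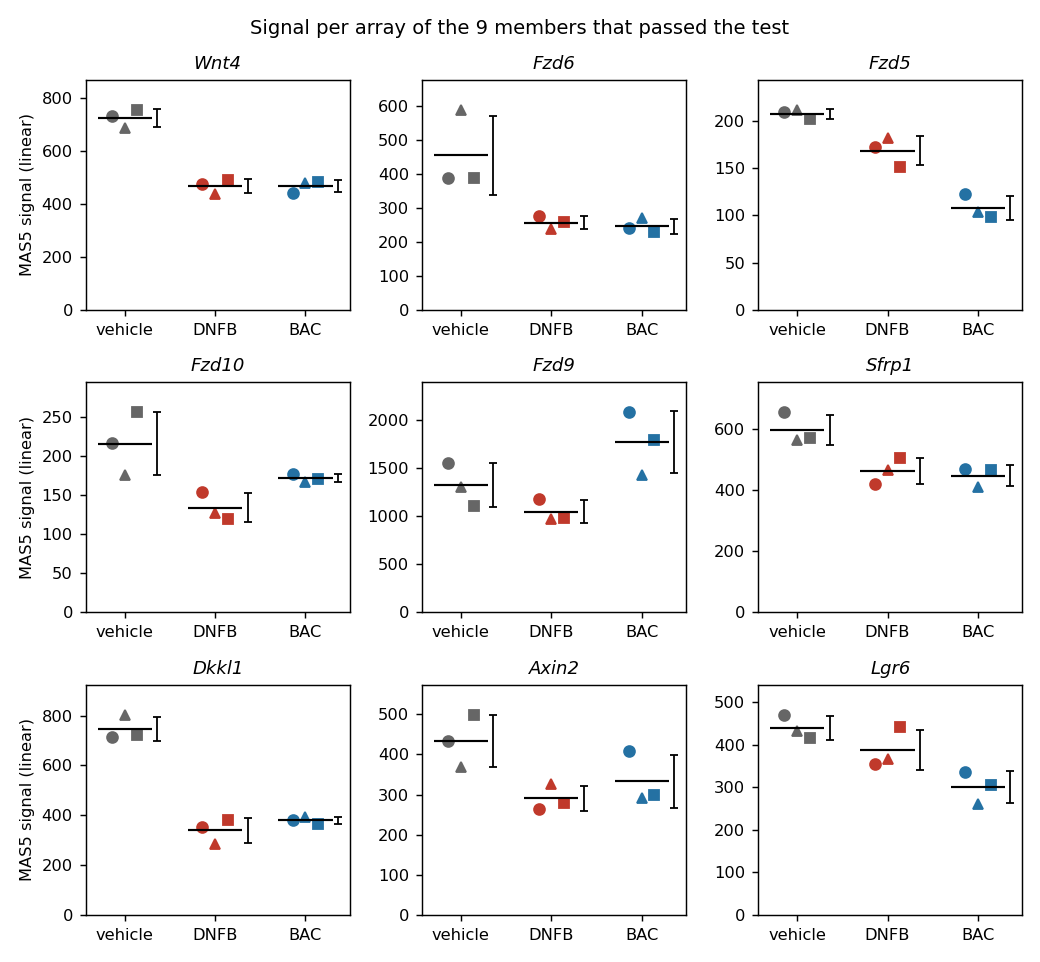
MAS5 signal on a linear scale for the 9 members that passed the test in at least 1 comparison, with 1 point per array (circle, triangle and square for replicates 1, 2 and 3), a line at the mean of each group of 3 and a bracket of 1 SD on either side of it. Wnt4 and Dkkl1 sit lower in every DNFB and BAC array than in every vehicle array, and Fzd9 sits lower in every DNFB array than in every BAC array.

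Of the WNT ligands, Wnt4 was the member that passed. Wnt4 (Entrez 22417, chromosome 4), which encodes a ligand produced in the epidermis among other epithelia, gave signals of 730, 686 and 754 in the vehicle arrays. The DNFB arrays gave 473, 437 and 489, and the BAC arrays 442, 478 and 481. No treated array reached the lowest vehicle array, and the DNFB and BAC arrays overlapped. The group means were 723 ± 34.7, 466 ± 26.5 and 467 ± 21.6 (SD, n = 3 arrays each). The log2 change was -0.62 ± 0.12 (SE) for DNFB (limma adjusted p = 0.0022) and -0.61 ± 0.12 for BAC (adjusted p = 0.00238), a fold of 0.652 (95% interval 0.549 to 0.775) and of 0.653 (0.550 to 0.777). DNFB over BAC was 0.998-fold (0.839 to 1.186; adjusted p = 0.993).

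The other 10 tested ligands did not pass in any comparison, and their changes lay on both sides of 0. For all 11 ligands the median log2 change was 0.05 for DNFB and -0.06 for BAC. Wnt7b, a ligand of the epidermis, came closest after DNFB, with signals of 658, 406 and 667 in vehicle, 430, 308 and 344 in DNFB and 576, 475 and 360 in BAC arrays. Its DNFB arrays overlapped the vehicle through 1 array of each, and its log2 change was -0.63 ± 0.20 (adjusted p = 0.052). A second Wnt7b probe set ordered the compounds the other way in a fit over all single-gene probe sets. There the change was -0.24 for DNFB (adjusted p = 0.6) and -0.70 for BAC (adjusted p = 0.0709). Wnt2b had the smallest p of the ligands for DNFB against BAC. Its signals were 44.9, 46.0 and 66.2 in vehicle, 81.7, 75.0 and 94.0 in DNFB and 15.0, 54.8 and 42.5 in BAC arrays, and the DNFB arrays lay above the other 6. At this dim level the log2 change was 0.55 ± 0.38 against the vehicle (adjusted p = 0.4) and 0.98 against BAC (adjusted p = 0.148).

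Ligands with no call included Wnt6, with mean signals of 200.1, 212 and 215 in vehicle, DNFB and BAC, and Wnt11, with 202, 266 and 229.8, whose changes of 0.37 and 0.15 did not pass. The noncanonical ligand Wnt5a had log2 changes of -0.31 for DNFB (adjusted p = 0.529) and -0.24 for BAC (adjusted p = 0.602). Its probe sets differed. In a fit over all single-gene probe sets, another gave -0.91 (adjusted p = 0.0947) and -1.05 (adjusted p = 0.0518), with every treated array below every vehicle array. Yet another gave 0.41 (adjusted p = 0.617) and 0.81 (adjusted p = 0.26). These misses do not show that the levels were alike. A further 8 ligands, Wnt1, Wnt3, Wnt3a, Wnt8a, Wnt8b, Wnt9b, Wnt10b and Wnt16, and the antagonist Dkk4 were too dim to be tested. The signals of these 9 genes ran from 1.56 to 108 over the arrays, and none lay above the 40th percentile in more than 2 of the 9.

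All 12 receptor genes were tested, the 10 Frizzled genes with Lrp5 and Lrp6. Fzd6 (Entrez 14368, chromosome 15), a receptor known for orienting hair follicles, fell with both compounds. Its signals were 389, 590 and 388 in vehicle, 276, 238 and 258 in DNFB and 241, 270 and 228 in BAC arrays. Every treated array lay below every vehicle array, and vehicle replicate 2 stood above its group. Fzd6 changed by -0.76 ± 0.17 on the log2 scale for DNFB (adjusted p = 0.0071) and -0.82 ± 0.17 for BAC (adjusted p = 0.00434). When the probe sets of Fzd6 were averaged, neither call held (adjusted p = 0.121 and 0.167).

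Fzd5 (Entrez 14367, chromosome 1) fell after BAC. Its signals were 209, 211 and 201 in vehicle, 172, 181 and 151 in DNFB and 122, 103 and 98.5 in BAC arrays. The 3 groups did not overlap, with vehicle highest, DNFB between and BAC lowest. After BAC the log2 change was -0.85 ± 0.18 (adjusted p = 0.00482), a fold of 0.554 (0.425 to 0.722). For DNFB it was -0.28 ± 0.18 (adjusted p = 0.358). The difference between DNFB and BAC was 0.57 ± 0.18 and did not pass (adjusted p = 0.0707), so the BAC effect on Fzd5 was not shown to exceed that of DNFB. With the probe sets of Fzd5 averaged, the BAC change was -0.15 (adjusted p = 0.628).

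Fzd9 (Entrez 14371, chromosome 5) was the receptor that differed between DNFB and BAC. Its signals were 1559, 1307 and 1103 in vehicle, 1184, 977 and 987 in DNFB and 2083, 1434 and 1796 in BAC arrays. All DNFB arrays lay below all BAC arrays, and the vehicle arrays overlapped both. DNFB against BAC gave a log2 change of -0.74 ± 0.15 (adjusted p = 0.008), a fold of 0.601 (0.481 to 0.750). Against the vehicle neither compound passed, with -0.32 for DNFB (adjusted p = 0.189) and 0.41 for BAC (adjusted p = 0.0822). Without BAC replicate 2, Fzd9 passed as higher after BAC (log2 change 0.56, adjusted p = 0.0336).

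Fzd10 (Entrez 93897, chromosome 5) fell after DNFB. Its signals were 216, 175 and 255 in vehicle, 154, 127 and 119 in DNFB and 176, 166 and 171 in BAC arrays. All DNFB arrays lay below the other 6, and the BAC arrays overlapped the lowest vehicle array. The log2 change was -0.62 ± 0.19 for DNFB (adjusted p = 0.038) and -0.29 for BAC (adjusted p = 0.339), and the difference between the compounds was -0.33 (adjusted p = 0.335). The DNFB call was lost without vehicle replicate 1 (adjusted p = 0.117), vehicle replicate 3 (0.176), DNFB replicate 2 (0.0978) or DNFB replicate 3 (0.114). It was also lost with no filter on low signals (0.0769), under quantile normalization (0.0639), with the vehicle and DNFB arrays fitted alone (0.0552) and with averaged probe sets (0.93). That average includes a second Fzd10 probe set that was too dim to be tested. Fzd10os gave 119, 226 and 117 in vehicle, 313, 108 and 122 in DNFB and 42.1, 114 and 96.9 in BAC arrays, and no call was made. Its BAC arrays lay below its vehicle arrays, and its DNFB arrays overlapped both groups.

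The remaining Frizzled genes did not pass. Fzd4, which also serves as the receptor of norrin in blood vessels, gave 545, 552 and 437 in vehicle, 345, 423 and 373 in DNFB and 472, 500.1 and 512 in BAC arrays. Its DNFB arrays lay below all others, with a log2 change against the vehicle of -0.41 (adjusted p = 0.0594). Fzd2 had a log2 change of -0.65 ± 0.22 for BAC (adjusted p = 0.0616). Fzd1, with mean signals of 1562, 1615 and 1373 in vehicle, DNFB and BAC, had changes of 0.04 and -0.19. Over the 12 receptors the median log2 change was -0.30 for DNFB and -0.24 for BAC, with 9 and 10 of the 12 below 0.

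The co-receptors gave no call. The probe set used for Lrp6 stayed between 1124 and 1557 in all 9 arrays, and its log2 change was 0.22 ± 0.11 for DNFB (adjusted p = 0.216) and -0.00079 for BAC (adjusted p = 0.997). The 95% interval of its fold was 0.992 to 1.37 for DNFB and 0.852 to 1.17 for BAC. A dimmer second Lrp6 probe set gave 125, 117 and 91.1 in vehicle, 155, 142 and 165 in DNFB and 42.5, 25.5 and 160 in BAC arrays. In a fit over all single-gene probe sets it changed by 0.43 for DNFB (adjusted p = 0.566) and -0.74 for BAC (adjusted p = 0.261). DNFB lay 1.17 above BAC there (adjusted p = 0.103). Lrp5 was dim and scattered, with 151, 95.9 and 258 in vehicle, 28.8, 110.4 and 100.3 in DNFB and 134, 68.9 and 83.4 in BAC arrays. The groups overlapped, and its log2 change for DNFB, -0.99 ± 0.40, did not pass (adjusted p = 0.126).

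Among the 8 tested secreted antagonists, Sfrp1 (Entrez 20377, chromosome 8), a Frizzled-related protein that binds WNT ligands, passed after BAC. Its signals were 655, 565 and 572 in vehicle, 420, 465 and 506 in DNFB and 469, 409 and 464 in BAC arrays. Every treated array lay below every vehicle array. Sfrp1 changed by -0.40 ± 0.13 on the log2 scale for BAC (adjusted p = 0.0475) and -0.36 ± 0.13 for DNFB (adjusted p = 0.0825). The BAC call was at the threshold: it held in 1 of the 9 fits that left out an array, the one without DNFB replicate 1, and the adjusted p over those fits ran from 0.0405 to 0.197. It was also lost with no filter on low signals (0.0508), under quantile normalization (0.0773) or median centring (0.0599), without the intensity trend (0.0778) and with averaged probe sets (0.289).

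The other 7 tested antagonists did not pass in the main fit. Wif1, which binds WNT ligands directly, gave 4959, 4613 and 4347 in vehicle, 4248, 3207 and 4334 in DNFB and 4420, 3544 and 4230 in BAC arrays. Its log2 changes were -0.25 ± 0.13 for DNFB (adjusted p = 0.223) and -0.19 for BAC (adjusted p = 0.342). Under quantile normalization Wif1 passed as lower after DNFB (-0.39, adjusted p = 0.0442). Dkk3, a divergent Dickkopf protein, was the antagonist with the smallest p after DNFB, with 1029, 1252 and 901 in vehicle, 1296, 1773 and 1392 in DNFB and 1332, 895 and 1252 in BAC arrays. The DNFB arrays lay above the vehicle arrays, with a log2 change of 0.48 ± 0.16 (adjusted p = 0.0672). This change passed without vehicle replicate 2 (adjusted p = 0.0318) or BAC replicate 2 (0.0394). A second Dkk3 probe set gave 937, 998 and 946 in vehicle and 930, 1284 and 793 in DNFB arrays. These overlapped, with a log2 change of 0.03 (limma adjusted p = 0.942 in a fit over all single-gene probe sets). Sfrp2, a decoy made by dermal fibroblasts, gave 1098, 1088 and 1058 in vehicle, 984, 1728 and 1217 in DNFB and 931, 884 and 1053 in BAC arrays. Its difference between DNFB and BAC was 0.41 ± 0.16 (adjusted p = 0.142), and passed without DNFB replicate 1 (0.60, adjusted p = 0.0276).

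Dkkl1 (Entrez 50722, chromosome 7), a Dickkopf-like gene first known from male germ cells, had the largest log2 change of the 9 called members against the vehicle. Its signals were 716, 804 and 723 in vehicle, 351, 285 and 382 in DNFB and 379, 395 and 366 in BAC arrays. No treated array came near the vehicle arrays, and the treated groups overlapped each other. The group means were 748 ± 48.8, 339 ± 49.4 and 380 ± 14.6 (SD, n = 3 arrays each). The fold was 0.463 (0.379 to 0.565) for DNFB (adjusted p = 4.96e-05) and 0.519 (0.426 to 0.633) for BAC (adjusted p = 0.000199).

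Axin2 (Entrez 12006, chromosome 11), the feedback inhibitor, fell after DNFB. Its signals were 434, 369 and 499 in vehicle, 265, 326 and 279.8 in DNFB and 409, 291 and 299 in BAC arrays. All DNFB arrays lay below the vehicle arrays, whereas 1 BAC array lay within the vehicle range. The log2 change was -0.55 ± 0.17 for DNFB (adjusted p = 0.0382) and -0.37 ± 0.17 for BAC (adjusted p = 0.158), and the compounds differed by -0.18 (adjusted p = 0.586). The DNFB call was lost without vehicle replicate 1 (adjusted p = 0.109), vehicle replicate 3 (0.167), DNFB replicate 1 (0.111) or DNFB replicate 3 (0.0999). It was also lost with no filter on low signals (0.0578), under quantile normalization (0.0724) or median centring (0.0601), without the intensity trend (0.0896) and with averaged probe sets (0.298). That average includes a second Axin2 probe set that was too dim to be tested.

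Lef1, the DNA-binding partner of beta-catenin in hair follicles, gave no call. Its signals were 74.7, 71.2 and 50.7 in vehicle, 92.3, 99.7 and 78.1 in DNFB and 55.6, 58.2 and 107 in BAC arrays. The DNFB arrays lay above the vehicle arrays, and BAC replicate 3 stood above its group. Its log2 change was 0.39 ± 0.30 for DNFB (adjusted p = 0.472) and 0.10 for BAC (adjusted p = 0.865).

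Lgr6 (Entrez 329252, chromosome 1), an R-spondin receptor that marks stem cells of the upper hair follicle, fell after BAC. Its signals were 471, 432 and 416 in vehicle, 356, 366 and 443 in DNFB and 337, 261 and 306 in BAC arrays. All BAC arrays lay below the other 6. The log2 change was -0.53 ± 0.14 for BAC (adjusted p = 0.0236) and -0.18 for DNFB (adjusted p = 0.489), and the difference between the compounds, 0.35, did not pass (adjusted p = 0.173). The BAC call was lost without vehicle replicate 1 (adjusted p = 0.105), vehicle replicate 2 (0.0508), BAC replicate 2 (0.105) or BAC replicate 3 (0.0559). Lgr5, which marks stem cells of the follicle bulge, gave 195, 152 and 214 in vehicle, 165, 152 and 176 in DNFB and 214, 112 and 104 in BAC arrays. Its groups overlapped, with log2 changes of -0.16 ± 0.24 for DNFB (adjusted p = 0.741) and -0.40 for BAC (adjusted p = 0.302). Without BAC replicate 1, Lgr5 passed as lower after BAC (-0.70, adjusted p = 0.0491).

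**Figure D2:**
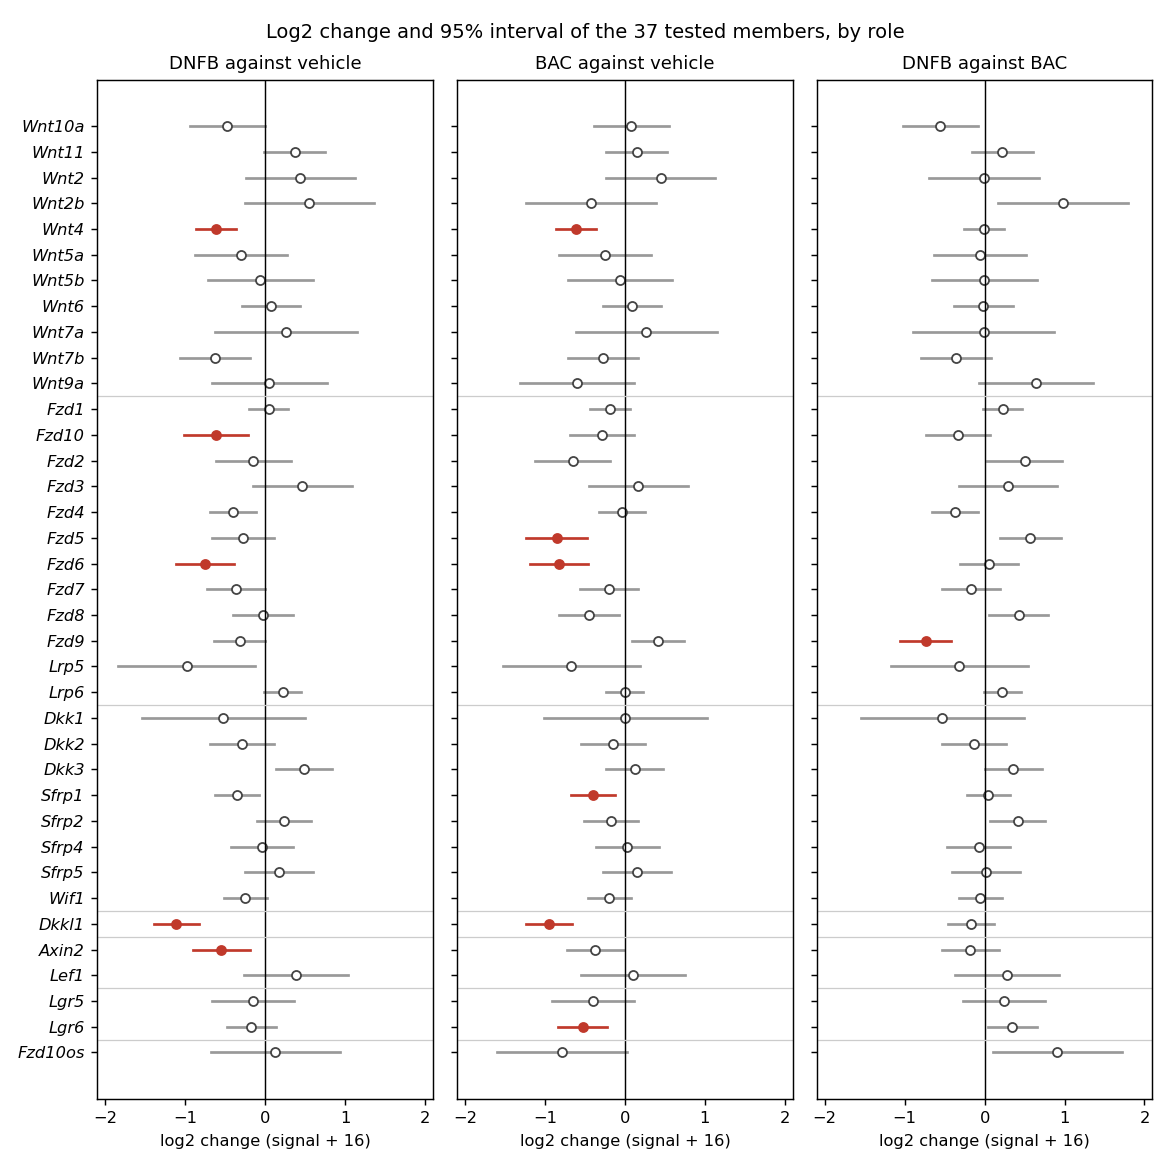
Log2 change of signal + 16 with its 95% interval for the 37 tested members, ordered by role, in the 3 comparisons; filled points passed the limma test over all tested genes. For DNFB 23 and for BAC 25 of the 37 points lie left of 0, with 5 and 6 filled, all on the left.

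Over all 3 treatments the moderated F test of the same fit called 6 of the 37 members, against 19.4% of all tested genes: Wnt4, Fzd5, Fzd6, Fzd9, Lgr6 and Dkkl1. In the direct comparison of the compounds, 19 of the 37 members lay below 0 (median log2 change -0.0015, beside 0.03 over all tested genes). This split depended on the scaling: 13 members lay below 0 after quantile normalization and 11 after centring each array on its median. Fzd9 was called under either scaling, and Fzd5 was also called, as higher after DNFB, under quantile normalization. No member was called as higher than the vehicle under any of the 3 scalings.

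Several members had more than 1 probe set, which read different stretches of a gene's transcripts. Of the 88 probe sets 60 were tested in a fit over 25079 single-gene probe sets. For DNFB against vehicle 6 passed, all lower (10% of the 60, beside 11.4% of all). For BAC against vehicle 7 passed, all lower (11.7%, beside 11.4%), and the probe set used for Sfrp1 did not (adjusted p = 0.063). For DNFB against BAC 1 passed in each direction (3.33%, beside 5.26%). No probe set of a called member passed in the opposite direction to its gene.

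A second Wnt4 probe set followed the first, with signals of 344, 369 and 325 in vehicle, 241, 245 and 213 in DNFB and 265, 245 and 127 in BAC arrays. It passed for BAC (log2 change -0.72, adjusted p = 0.0435) and not for DNFB (-0.54, adjusted p = 0.133). A second Fzd4 probe set passed for DNFB (-0.55 ± 0.16, adjusted p = 0.033). Another probe set of Fzd2, a receptor of both WNT branches, gave 286, 234 and 216 in vehicle, 237, 232 and 280.0 in DNFB and 148, 94.5 and 162 in BAC arrays. All BAC arrays lay below the other 6, with a log2 change of -0.81 ± 0.20 (adjusted p = 0.0177), and DNFB lay 0.84 above BAC (adjusted p = 0.026). These probe sets were picked after their values were seen.

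Other probe sets did not share their gene's call. A second Fzd5 probe set had a BAC change of 0.55 (adjusted p = 0.25), and a second Lgr6 probe set one of 0.19 (adjusted p = 0.636). A second Fzd6 probe set had changes of -0.77 for DNFB (adjusted p = 0.0976) and -0.13 for BAC. Further Sfrp1 probe sets had BAC changes of -0.73 (adjusted p = 0.0723), -0.59 (0.542), -0.17 (0.706) and 0.088 (0.886). With the probe sets of a gene averaged, the Lgr6 change for BAC was -0.17 and the Fzd10 change for DNFB was -0.05, and neither passed. Of the 15 genes with several tested probe sets, 6 had values on both sides of 0 for DNFB, 6 for BAC and 9 for DNFB against BAC.

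**Figure D3:**
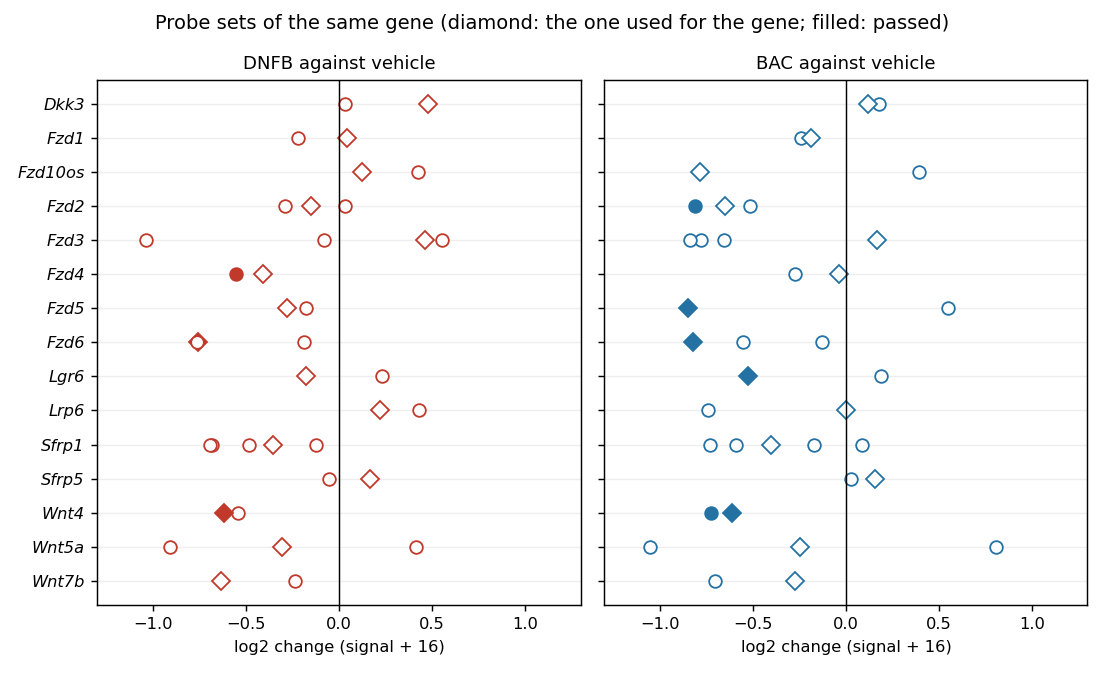
Log2 change of signal + 16 against the vehicle, for DNFB on the left and BAC on the right, for each tested probe set of the 15 members with more than 1 tested probe set; diamonds mark the probe set used for the gene and filled symbols passed in the fit over all single-gene probe sets. Both Wnt4 probe sets lie left of 0 against the vehicle, whereas those of Fzd5 and Lgr6 lie on both sides of 0 for BAC.

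Other genes of the pathway were read from 7 lists. Of 83 tested genes, 6 were higher and 9 lower after DNFB (18.1%), 4 higher and 8 lower after BAC (14.5%), and 2 higher and 6 lower for DNFB against BAC (9.64%). Over all tested genes 13.8%, 14.2% and 6.8% passed in these comparisons. The counts of single lists given below are small and stand beside these same shares. The median log2 change of the 83 genes was -0.07, -0.12 and 0.00029. None of the 3 genes of WNT secretion, Porcn, Wls and Notum, passed in any comparison. Among R-spondins with their receptors and ligases, 1 of 6 passed after DNFB: Znrf3, the ligase that removes Frizzled from the surface, fell by 0.56 on the log2 scale (adjusted p = 0.036). That call was lost without vehicle replicate 1 (adjusted p = 0.0757), vehicle replicate 3 (0.184), DNFB replicate 2 (0.0998) or DNFB replicate 3 (0.126), and in 5 other settings (adjusted p from 0.0533 to 0.386). None of the 6 passed after BAC.

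Inside the cell, Ctnnbip1, which blocks beta-catenin from TCF factors, fell with both compounds, by 0.95 after DNFB (adjusted p = 7.28e-05) and 0.61 after BAC (adjusted p = 0.00314) on the log2 scale. In its list of 21 tested genes of the destruction complex and dishevelled, 2 were higher and 3 lower after DNFB and 1 was lower after BAC. Csnk1g1, a kinase that acts on LRP6, fell by 0.79 (adjusted p = 0.00258), and Gsk3b, the kinase that marks beta-catenin for destruction, by 0.45 (adjusted p = 0.0155) after DNFB. With averaged probe sets Csnk1g1 was not called (adjusted p = 0.133). The Gsk3b call was lost without vehicle replicate 1 (adjusted p = 0.0786) or vehicle replicate 3 (0.0569), with each array centred on its median (0.0529) or without the intensity trend (0.0535). Of 15 nuclear factors, the coactivator gene Bcl9l fell after DNFB (-0.75, adjusted p = 0.0177) and BAC (-0.70, adjusted p = 0.0268), but with its probe sets averaged the values were 0.017 and 0.30. Both Bcl9l calls were also lost without vehicle replicate 1 or vehicle replicate 3, the DNFB call without DNFB replicate 1 or 2, and the BAC call without BAC replicate 2 or 3 (adjusted p from 0.0604 to 0.127). The corepressor gene Ctbp2 rose after DNFB (0.55, adjusted p = 0.0126), a call lost without vehicle replicate 2 (adjusted p = 0.0519) and with averaged probe sets, where the change was 0.26 (adjusted p = 0.275).

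Genes often listed as WNT targets moved in both directions. Of the 10 tested, 2 rose after DNFB, and 3 rose and 2 fell after BAC. Myc, a growth regulator that many signals induce, gave 939, 933 and 675 in vehicle, 2255, 1917 and 2202 in DNFB and 3523, 3183 and 3260 in BAC arrays. The groups did not overlap, with BAC highest, and its log2 changes were 1.32 ± 0.13 for DNFB (adjusted p = 5.71e-06), 1.96 ± 0.13 for BAC (adjusted p = 8.73e-08) and -0.64 ± 0.13 for DNFB against BAC (adjusted p = 0.00683). Vegfa, a vascular growth factor, rose by 1.19 and 1.11 (adjusted p = 0.000218 and 0.000402). Tnfrsf19, a receptor of hair follicle cells, fell after BAC (-0.92 ± 0.15, adjusted p = 0.000613). Axin2, a member and also a target, fell after DNFB as given above.

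In the planar polarity and calcium branch, 1 of 20 tested genes was higher and 4 lower after DNFB, and 1 higher and 3 lower after BAC. Celsr2, an adhesion receptor of planar polarity, fell after DNFB (-0.89 ± 0.13, adjusted p = 0.000292), and its relative Celsr1 by 0.94 (adjusted p = 0.0117), a call lost without vehicle replicate 1, vehicle replicate 3 or DNFB replicate 1 (adjusted p from 0.0501 to 0.0643). Nfatc2, a calcium-dependent factor, fell after DNFB (-1.36 ± 0.17, adjusted p = 5.92e-05) and BAC (-0.64 ± 0.17, adjusted p = 0.0192). With averaged probe sets the DNFB change was -0.39 and was not called (adjusted p = 0.389), and the BAC change was 0.035. The BAC call was also lost without vehicle replicate 1, vehicle replicate 3 or BAC replicate 3 (adjusted p from 0.0755 to 0.0876). After BAC, Vangl1, a core polarity gene (-0.61, adjusted p = 0.00725), and Daam1, a formin downstream of dishevelled (-0.54, adjusted p = 0.00438), also fell. Neither was called with averaged probe sets, where Vangl1 was at -0.56 (adjusted p = 0.102) and Daam1 at -0.34 (adjusted p = 0.337). Among 8 other extracellular inhibitors, Sostdc1, which blocks BMP and WNT signals, fell after BAC (-0.90 ± 0.22, adjusted p = 0.0111), a call lost without vehicle replicate 3 (adjusted p = 0.0604) or BAC replicate 2 (0.054), or without the intensity trend (0.0545).

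Between the compounds, Rspo3, an R-spondin, was higher after DNFB than after BAC (1.05 ± 0.29, adjusted p = 0.0404), and so was Bambi, a decoy receptor of TGF-beta signalling (0.83, adjusted p = 0.0221). Lower after DNFB than after BAC were Sox9, a follicle factor (-0.67, adjusted p = 0.0207), Tmem88, an inhibitor of dishevelled (-0.60, adjusted p = 0.0447), and Cd44, a hyaluronan receptor (-0.46, adjusted p = 0.0389). The same held for Nfatc2 (-0.72, adjusted p = 0.0176) and Celsr2 (-0.52, adjusted p = 0.03). When arrays were left out in turn, Rspo3 and Tmem88 each kept the call in 2 of 9 fits, Celsr2 in 4, Cd44 and Nfatc2 in 5, and Sox9 and Bambi in 6, and Myc in 9. The Myc difference was not called with each array centred on its median (adjusted p = 0.0536) or without the intensity trend (0.0678). Nor were Sox9, Tmem88, Cd44, Nfatc2 and Celsr2 under either of these settings (adjusted p from 0.0512 to 0.141), or Bambi without the trend (0.0963). Rspo3 was not called with no filter on low signals (0.067) or with the DNFB and BAC arrays fitted alone (0.0737).

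**Figure D4:**
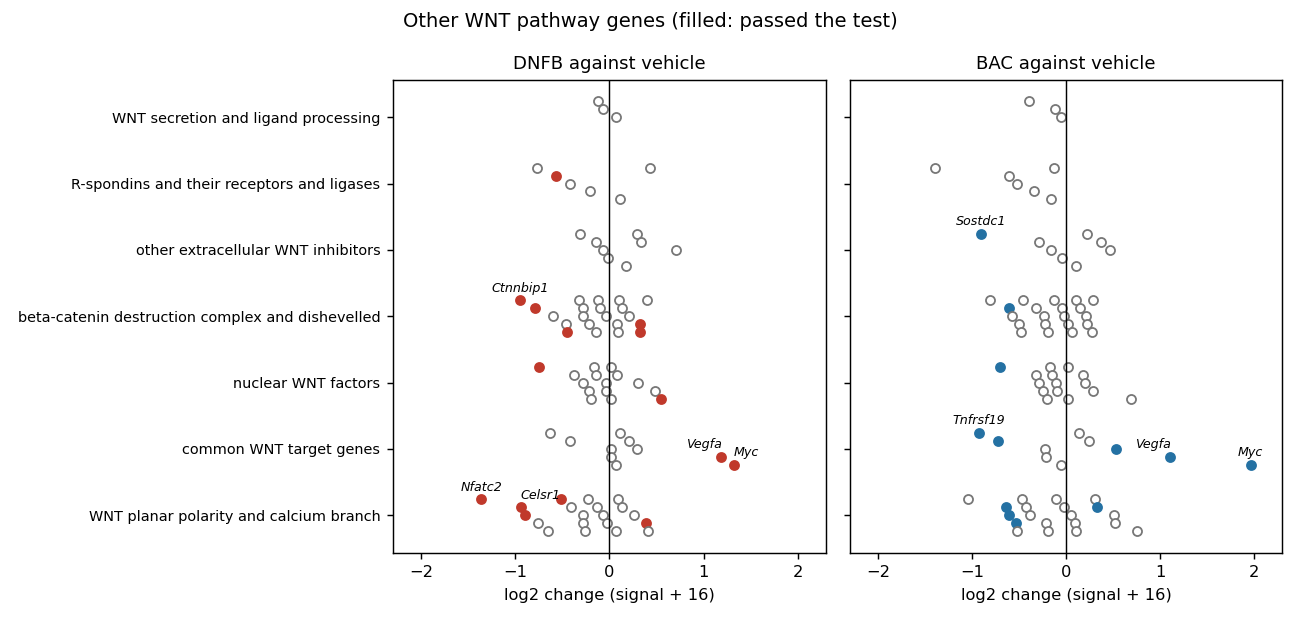
Log2 change of signal + 16 for the 83 tested genes of 7 other WNT pathway lists, for DNFB and BAC against the vehicle, with 1 point per gene and filled points for genes that passed. Myc and Vegfa stand far right of 0 against the vehicle, Nfatc2 and Ctnnbip1 lie left of 0, and the filled points number 15 for DNFB and 12 for BAC; height within a list only separates the points.

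Cell type markers moved in the same arrays. Of 10 epidermal markers 6 were lower after DNFB and 4 after BAC. Of all tested genes 7.08% and 7.64% were lower. The summed signal of the epidermal list, in which bright markers weigh most, was 79855 to 90749 in vehicle, 69710 to 81196 in DNFB and 76445 to 79423 in BAC arrays. Of 9 tested follicle bulge and outer root sheath markers, 3 were lower after DNFB and 2 after BAC. The summed signal of that list was 16851 to 18850.1 in vehicle, 11653 to 12565 in DNFB and 10491 to 14815 in BAC arrays. Every treated array lay below every vehicle array in that sum. Krt15, a keratin of basal and bulge cells that both lists hold, fell by 0.70 after DNFB and by 0.81 after BAC on the log2 scale (adjusted p = 0.00824 and 0.00306).

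Of all tested genes 6.76% were higher after DNFB and 6.59% after BAC. Neutrophil markers rose in 6 of 8 after DNFB and 8 of 8 after BAC, with summed signals of 3762 to 8753 in vehicle, 14390 to 24227 in DNFB and 23322 to 33193 in BAC arrays. Fibroblast markers were higher in 4 of 11 after DNFB and 2 of 11 after BAC, and skeletal muscle markers in 7 of 12 after DNFB and 0 of 12 after BAC. Some markers also rose after DNFB and BAC in the lists for monocytes and macrophages (4 of 8 and 4 of 8), smooth muscle and pericytes (3 of 5 and 2 of 5) and Schwann cells (3 of 4 and 2 of 4). No marker of the epidermal, follicle, neutrophil, fibroblast and skeletal muscle lists, which were picked for description from a larger set after their values were seen, lay at or below the 40th percentile in all arrays. The part of these cell types in the WNT values was not tested.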

How the data were processed

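Total RNA of mouse ear skin was labelled with a 3' IVT kit for Affymetrix arrays (per the labels' protocols). The authors deposited 1 intensity per probe set and array, a linear MAS5 signal. Per the submitters' processing notes it was made with MAS5 and Affymetrix Expression Console, with versions and settings not given in the sources used here. MAS5 scales each array to one target, and dim signals are noisy. Detection calls and scan batches were not used here.

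Control probe sets (64), probe sets with several symbols (932) and those not listed with a gene (9160) were left out of the tests. A gene was represented by its brightest probe set, by mean log2 signal over the arrays. It was tested when above the array's 40th percentile in at least 3 of 9 arrays. Of the 34945 single-gene probe sets 34741 matched a RefSeq GRCm38.p6 identifier, which changed 0 symbols. Values were log2(signal + 16), which understates changes of dim genes. All 9 arrays entered one limma 3.58.1 model in R 4.3.3 (a mean per treatment, eBayes with intensity trend, 6 residual degrees of freedom), two-sided, with p-values adjusted (Benjamini-Hochberg) over the tested genes or probe sets and a threshold of 0.05. Levels were compared between groups for one probe set or for one marker sum, never between probe sets. After the main fit, the same model was run on simulated data with known changes, made from the gene means and spreads of that fit. Its results are not given here. With 3 arrays a group, exact permutation gives no p below 0.1, so it was not run.

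The members and lists were chosen with earlier results of these data known, so no list was tested as a set. Named by rule were members that passed in any comparison, the member with the smallest p in a role where none passed, and Axin2, Lef1, Tcf7, Lrp5, Lrp6, Lgr5, Lgr6 and Wif1. From the pathway lists the rule took up to 3 passing genes with the largest change in each comparison. Other genes named were chosen after their values were seen. Alternatives were other pseudocounts, scalings, filters, probe set rules and variance models, a replicate block, and leaving out each array.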

Additional observations from a re-analysis of the deposited data

How the results depend on the processing

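Of 19 alternatives, all 19 kept the calls of Wnt4 and Dkkl1 against the vehicle. The calls of Fzd6 held in 18 and were lost with averaged probe sets, as was that of Fzd5 (18 of 19), and that of Fzd9 held in 18 and was lost without the intensity trend (adjusted p = 0.0732). Lgr6 held in 14, Fzd10 in 11, Axin2 in 9 and Sfrp1 in 5. Members called against the vehicle for DNFB, 5, became 3 with no filter on low signals and 2 with averaged probe sets, and for BAC, 6, became 3 with averaged probe sets. For DNFB against BAC, 1 became 2 under quantile normalization. Leaving out each array gave 3 to 7 members for DNFB, with 3 without vehicle replicate 1 or DNFB replicate 3, 4 to 7 for BAC and 1 to 2 for DNFB against BAC. Over all tested genes it gave 1249 to 1929 calls for DNFB (lowest without vehicle replicate 3), 1225 to 2148 for BAC (lowest without vehicle replicate 1) and 513 to 999 for DNFB against BAC (lowest without BAC replicate 2). Without the intensity trend 1202 genes were called for DNFB in place of 1955, and 402 for DNFB against BAC in place of 961. Of genes called after BAC, 46.3% were higher, but 34% when each array was centred on its median, where the median log2 change of all genes was -0.12 in place of -0.03. Why these values moved was not tested. Dim signals limit what can be seen: 9 members were not tested.

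Averaged probe sets reversed changes that had not passed. Against the vehicle these were Lgr5 for DNFB (0.18) and BAC (0.21), Lgr6 for DNFB (0.026), Fzd10 for BAC (0.38) and Lef1 for BAC (-0.043). For DNFB against BAC they were Fzd5 (-0.078), Fzd6 (-0.068), Lgr5 (-0.033), Sfrp1 (-0.11) and Wnt4 (0.090). In these averages the second probe sets of Lgr5, Fzd10 and Lef1 were too dim to be tested. Called changes that reversed there were those of Bcl9l for DNFB (0.017) and BAC (0.30), Nfatc2 for BAC (0.035) and Sox9 for DNFB against BAC (0.16). Quantile normalization turned Lrp6 for BAC (0.012) and Wnt4 for DNFB against BAC (0.0051), and centring turned Wif1 (0.018) and Wnt4 (0.070) for DNFB against BAC. Leaving out arrays turned values that had not passed: Lef1 (-0.15 to 0.24) and Lrp6 (-0.039 to 0.052) for BAC, and for DNFB against BAC Lrp5 (-0.58 to 0.16, where -0.31 became 0.16 without DNFB replicate 1), Sfrp1 (-0.014 to 0.11), Wif1 (-0.15 to 0.084) and Wnt4 (-0.041 to 0.041).

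Same-numbered arrays of different groups correlated in their deviations from the group means with r from -0.12 to 0.15 in 9 pairs, 1 of them above 0.1. Pairs with other numbers gave r from -0.16 to 0.12 in 18 pairs, 2 of them above 0.1. The numbers were therefore taken as names. The labels do not say whether same-numbered arrays, or vehicle and treated ears, came from one mouse, and these few pairs cannot exclude it. With the replicate number as a block, 1874, 1939 and 860 genes were called for DNFB, BAC and DNFB against BAC, and 5, 7 and 1 members. Against the vehicle these were not the same members as in the main fit. For each compound a further member, not named here, was called as lower. Axin2 for DNFB (adjusted p = 0.0526) and Sfrp1 for BAC (adjusted p = 0.0621) were not called under the block, and Fzd9 was called as higher after BAC (adjusted p = 0.0369). Nor were Rspo3, Tmem88 and Cd44 called for DNFB against BAC (adjusted p = 0.0626, 0.0677 and 0.0519).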
